A study of Mus musculus with 21 samples.

Results

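The interval between 6 h and 12 h of PERK activation was examined in MIN6m9 cells, a subclone of the mouse insulinoma beta cell line MIN6, that carry Fv2E-PERK. Fv2E-PERK is a PERK kinase fused to a domain that binds the small molecule AP20187, so that adding AP20187 brings kinase domains together and activates them without damage to the endoplasmic reticulum. The members were the 2 arrays titled as 12 h and the 2 arrays titled as 6 h of 1 nM AP20187 in these cells, which is 4 of the 21 arrays of the series. The series also holds 2 arrays each at 24 h and 48 h of 1 nM AP20187, 2 arrays each of Fv2E-PERK and of wild-type cells given a mock treatment (ethanol vehicle, per the labels' protocol), and a separate fatty acid experiment in wild-type cells. No mock array entered the comparison, and mock levels are given only as a description. The sources used here do not give the promoter that drives the transgene, whether the line is 1 clone, or when mock cells were harvested. Wild-type cells with AP20187 were not analysed here. Nothing in the labels ties replicates to separate cultures, so p-values reflect the spread among these arrays alone, and that spread may be technical.

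PERK is a kinase of the endoplasmic reticulum membrane that phosphorylates the initiation factor eIF2alpha. This slows the translation of most mRNAs and favours that of Atf4, whose protein, with C/EBP partners, switches on genes of amino acid supply, tRNA charging, redox balance and, later, cell death: the integrated stress response. Beta cells, which fold large amounts of proinsulin, depend on PERK and are also sensitive to its prolonged activity.

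Between 6 h and 12 h some members of most gene lists changed, and in all but 1 of the lists described here most members did not pass the test. Fatty acid synthesis had 9 of 16 genes lower, glycolysis 7 of 17 and sterol synthesis 9 of 23, while 7 of 17 circadian clock genes were higher. Among the transcription factors of the integrated stress response 2 of 12 were higher. Levels are log2 processed signal relative to each array's 75th percentile, so that 0 is the signal at that percentile, and a difference is the mean at 12 h minus the mean at 6 h with its standard error (n = 2 arrays per time). An entry, meaning a gene or an unnamed transcript, was called where limma's adjusted p was under 0.05. Of 21662 entries tested, 3636 were called (16.8%), of which 1884 were higher at 12 h (8.7%) and 1752 lower (8.09%). The changes were small: the median called rise was 0.62 and the median called fall -0.45, and 413 rises and 36 falls reached 2-fold. Of the 1884 rises 251 were not well above background on either 6 h array, and of the 1752 falls 21 on neither 12 h array. Among those of at least 2-fold these numbers were 196 and 10. Such entries passed the filter through 1 time alone and so had to differ, and rises and falls are therefore not weighed against each other. The median difference over all entries was -0.02. Scaling to the spike-in controls left 789 calls, of which 90.4% were higher against 51.8% here, and the number of calls fell to 586 without 6 h replicate 1, 997 without 6 h replicate 2, 1536 without 12 h replicate 1, 315 without 12 h replicate 2 and 2055 without either 48 h array, which enter through the shared estimate of spread.

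**Figure D1:**
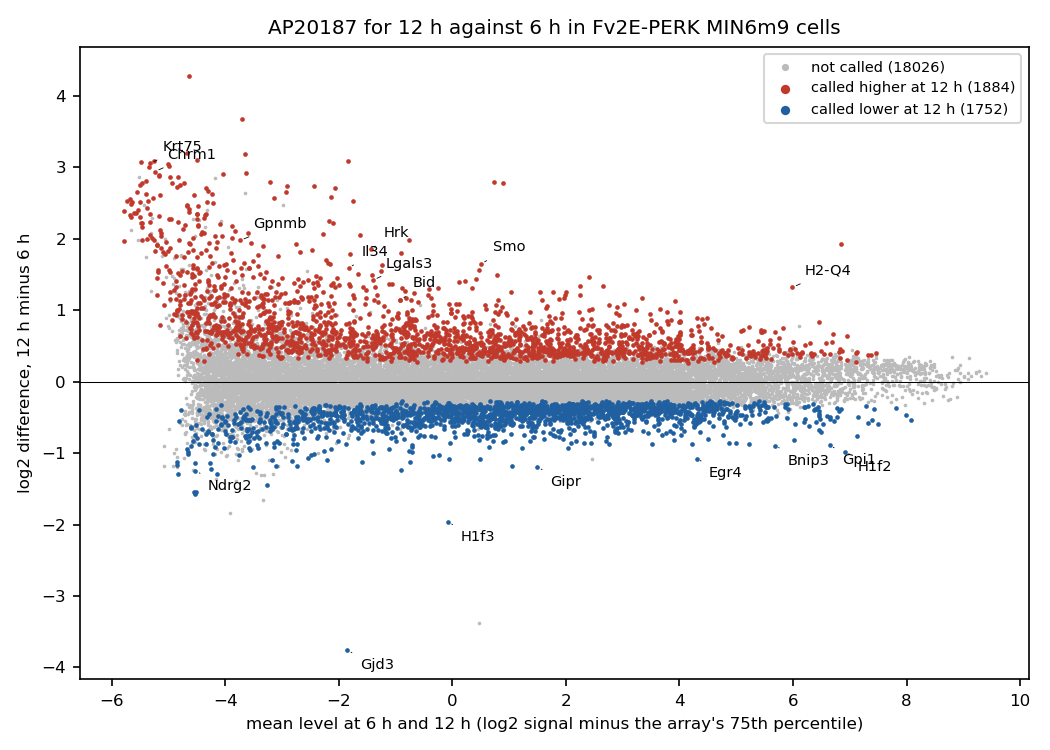
Log2 difference between 12 h and 6 h of AP20187 (vertical axis) against the mean level of the 4 arrays (horizontal axis, log2 signal minus the array's 75th percentile) for the 21662 entries tested. Red points are the 1884 entries called higher, blue points the 1752 called lower and grey points those not called; the largest rises lie at the lowest levels, and Gjd3 is the largest called fall.

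The transcription factors of the integrated stress response moved little in this interval. Of 12 tested, 2 were called higher and 0 lower, with a median difference of 0.11. Nupr1, a stress-induced chromatin protein, read 5.32 and 5.28 at 6 h and 5.73 and 6.03 at 12 h. The groups did not overlap, and Nupr1 rose by 0.58 ± 0.12 (SE, adjusted p = 0.024). Cebpb, a C/EBP partner of Atf4, read 4.27 and 4.28 at 6 h and 4.58 and 4.60 at 12 h, a rise of 0.32 ± 0.09 (adjusted p = 0.049). Atf4 itself read 8.26 and 8.15 at 6 h and 8.26 and 8.41 at 12 h, which overlap, with a difference of 0.13 ± 0.09 (adjusted p = 0.36). For Ddit3, which encodes the pro-apoptotic factor CHOP, the difference was 0.27 ± 0.09 (adjusted p = 0.085), and for Atf3 it was 0.10 ± 0.07 (adjusted p = 0.37). Atf3 stood at 4.33 on both 6 h arrays, far from the mock arrays at -1.18 and -1.30. Without 12 h replicate 2, or without either 6 h array, 0 of the 12 factors were called.

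Among the feedback genes of the pathway 1 of 17 was called higher and 0 lower, with a median difference of 0.08; without any 1 of the 4 arrays 0 were called. The called member was Tnfrsf10b, the death receptor DR5, which read -2.85 and -2.95 at 6 h and -2.48 and -2.38 at 12 h (0.47 ± 0.11, adjusted p = 0.035). Trib3, a pseudokinase that restrains Atf4, read 7.11 and 6.93 at 6 h and 7.18 and 7.22 at 12 h, against 4.26 and 4.48 in mock cells. Its difference of 0.18 ± 0.09 was not called (adjusted p = 0.18), nor was that of Chac1, a glutathione-degrading enzyme (-0.11 ± 0.09, adjusted p = 0.42). Ppp1r15a, which encodes the GADD34 subunit that returns eIF2alpha to its unphosphorylated state, differed by 0.25 ± 0.08 (adjusted p = 0.065). Its next step was larger: from 12 h to 24 h it rose by 1.28 (adjusted p = 0.00043), and the test of the difference between the steps gave an adjusted p of 0.0087. The steps share the 12 h arrays, and the later one spans more hours. Eif2ak3, the gene of PERK itself, differed by 0.31 ± 0.14 (adjusted p = 0.16).

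Among the amino acid enzymes, 2 of 17 were called higher and 1 lower (17.6% against 16.8% of all entries), with a median difference of 0.10. Cth, which makes cysteine, read 1.55 and 1.23 at 6 h and 2.04 and 2.15 at 12 h, and rose by 0.71 ± 0.14 (adjusted p = 0.020). Shmt1, a cytosolic one-carbon enzyme, read -1.42 and -1.33 at 6 h and -0.53 and -0.72 at 12 h, and rose by 0.75 ± 0.10 (adjusted p = 0.0094). Pcx, the pyruvate carboxylase that refills the citric acid cycle, fell by 0.41 (SE 0.09, adjusted p = 0.026). Asns, asparagine synthetase and a standard Atf4 target, read 7.14 and 7.10 at 6 h and 7.18 and 7.27 at 12 h and was not called (0.11 ± 0.08, adjusted p = 0.35). Of 13 amino acid transporters, the cationic amino acid carrier Slc7a3 alone was called (0.44 ± 0.10, adjusted p = 0.030). Of 20 cytosolic aminoacyl-tRNA synthetases, Farsb, Eprs and Tars rose by 0.55, 0.49 and 0.37, while Wars and Qars fell by 0.42 and 0.40. For the synthetases 0 calls were left under spike-in scaling or without 6 h replicate 1 or 12 h replicate 2, and 1 without either of the other arrays; the call of Slc7a3 was lost without any 1 of the 4. Of the amino acid enzymes 1 was called without any 1 array, and without 12 h replicate 1 their median was -0.01.

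The promoters of 6 of the genes that the rule for named genes picked hold the core of the C/EBP-ATF response element, the DNA word bound by Atf4 with a C/EBP partner. At most 6 were printed, the first in the order of that rule, whether called or not. Of these, 3 were called higher at 12 h (Nupr1, Tars and Hrk) and 3 were not called (Atf3, Trib3 and Asns). Each run is 300 bases, from 250 bases before the start site to 50 bases after it, from RefSeq on GRCm38.p6, read 5′ to 3′ on the gene's strand, with the match to TGATGNAA on either strand in capitals. Nupr1 lies on the minus strand at chr7:126625421-126625720, Tars on the minus strand at chr15:11399609-11399908 and Hrk on the plus strand at chr5:118169514-118169813. Atf3 lies on the minus strand at chr1:191183284-191183583, Trib3 on the minus strand at chr2:152344011-152344310 and Asns on the minus strand at chr6:7693160-7693459.
Nupr1: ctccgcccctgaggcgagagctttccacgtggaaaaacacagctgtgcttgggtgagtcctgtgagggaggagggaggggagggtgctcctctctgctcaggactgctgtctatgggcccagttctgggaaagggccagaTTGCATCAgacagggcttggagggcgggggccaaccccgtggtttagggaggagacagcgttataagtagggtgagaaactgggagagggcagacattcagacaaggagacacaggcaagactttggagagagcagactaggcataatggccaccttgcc
Tars: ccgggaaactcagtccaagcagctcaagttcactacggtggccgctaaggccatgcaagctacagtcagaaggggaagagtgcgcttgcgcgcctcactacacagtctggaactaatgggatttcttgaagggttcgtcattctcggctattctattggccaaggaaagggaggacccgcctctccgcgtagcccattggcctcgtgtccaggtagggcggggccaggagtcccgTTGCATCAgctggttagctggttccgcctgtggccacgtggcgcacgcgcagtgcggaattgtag
Hrk: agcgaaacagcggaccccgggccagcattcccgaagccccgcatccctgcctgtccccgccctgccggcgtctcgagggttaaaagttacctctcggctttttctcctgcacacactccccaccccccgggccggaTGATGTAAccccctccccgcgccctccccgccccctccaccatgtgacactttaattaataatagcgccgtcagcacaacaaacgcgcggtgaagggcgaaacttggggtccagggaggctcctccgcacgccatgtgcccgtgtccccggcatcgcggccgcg
Atf3: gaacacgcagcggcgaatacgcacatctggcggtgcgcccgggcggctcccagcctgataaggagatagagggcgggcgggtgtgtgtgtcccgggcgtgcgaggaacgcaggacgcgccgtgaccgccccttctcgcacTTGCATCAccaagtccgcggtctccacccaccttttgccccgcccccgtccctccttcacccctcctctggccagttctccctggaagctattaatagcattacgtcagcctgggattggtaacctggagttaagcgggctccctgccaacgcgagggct
Trib3: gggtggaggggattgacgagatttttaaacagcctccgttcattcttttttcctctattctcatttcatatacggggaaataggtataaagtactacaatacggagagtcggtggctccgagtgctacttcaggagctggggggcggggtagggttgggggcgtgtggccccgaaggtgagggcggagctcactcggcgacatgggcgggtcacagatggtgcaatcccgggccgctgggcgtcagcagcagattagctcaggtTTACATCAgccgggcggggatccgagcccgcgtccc
Asns: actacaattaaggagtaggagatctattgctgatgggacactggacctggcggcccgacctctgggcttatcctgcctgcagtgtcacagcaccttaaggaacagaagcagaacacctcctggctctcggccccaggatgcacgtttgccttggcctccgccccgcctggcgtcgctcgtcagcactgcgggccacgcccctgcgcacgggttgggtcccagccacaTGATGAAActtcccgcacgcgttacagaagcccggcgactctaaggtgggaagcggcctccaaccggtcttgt

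A match was found in 3.97% of the 32851 promoters of the table. By gene, it was found for 2.95% of the 10782 tested genes with a promoter, 4.39% of the 912 called higher and 2.44% of the 1024 called lower. The ISR transcription factors held it in 3 of 10 genes and the ISR feedback genes in 4 of 13. The word CCACG, the end of the ER stress response element, searched on both strands, was in 50.5% of tested genes, 46.8% of those higher and 54.0% of those lower. These are counts of letters, not of binding.

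Among genes of cell death, Hrk and Bid had the largest rises. Hrk, a BH3-only activator of apoptosis, read -2.56 and -2.17 at 6 h and -0.57 and -0.46 at 12 h, a rise of 1.85 ± 0.13 or 3.61-fold (adjusted p = 0.0025). Bid, the BH3-only protein that links death receptors to mitochondria, read -1.49 and -1.48 at 6 h and -0.37 and -0.31 at 12 h, a rise of 1.15 ± 0.09 (adjusted p = 0.0029). Both 6 h arrays of Bid lay under the mock arrays, which read -0.51 on both. Casp4, an inflammatory caspase, also rose (0.63 ± 0.16, adjusted p = 0.042), as did Bbc3, which encodes PUMA and was listed with the p53 targets (0.34 ± 0.08, adjusted p = 0.031), and Bcl2l1, which encodes the survival protein Bcl-xL, fell by 0.34 (SE 0.07, adjusted p = 0.027). In all, 3 of 19 members of the list of Bcl2 family and death genes were called higher and 1 lower, with a median of 0.11. That is 21.1% called against 16.8% of all entries. The calls of Casp4, Bbc3 and Bcl2l1 were lost under spike-in scaling. Hrk and Bid kept their calls without each of the 4 arrays in turn and under spike-in, quantile, normexp and series matrix values.

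Several genes rose between 6 h and 12 h and rose again to 24 h. At 24 h against 12 h 6402 entries were called (29.6%), a comparison that shares the 12 h arrays. The genes named here were chosen after their values were seen. All but Plin2, Hmox1 and Cd36 were picked for being called higher in both steps, so their p-values are given as a description. Other genes that rose at 12 h fell at 24 h, as given with the largest rises. Gpnmb, a lysosomal and melanosomal membrane glycoprotein, read -5.06 and -4.39 at 6 h, where 1 of the 2 arrays was well above background, and -2.81 and -2.69 at 12 h, a rise of 1.98 ± 0.21 (adjusted p = 0.0060). It then rose by 4.06 to 24 h. Il34, a cytokine ligand of the CSF1 receptor, read -2.55 and -2.70 at 6 h and -1.08 and -0.98 at 12 h (1.59 ± 0.09, adjusted p = 0.0014) and rose by 2.35 in the next step. Acox2, a peroxisomal oxidase of bile acid side chains, rose by 1.84 ± 0.25, Krt18, a simple epithelial keratin, by 1.51 ± 0.20, and Wwtr1, the Hippo pathway coactivator TAZ, by 1.45 ± 0.22. Several others were not well above background on either 6 h array, so only a bound is given: the 12 h mean is set over a 6 h mean in which each array counts with the probe's own signal or with the lowest signal well above background, whichever was higher. By this bound Slco1b2, a hepatic organic anion transporter, was at least 3.68-fold higher (adjusted p = 0.0058), Slamf9 at least 3.40-fold (adjusted p = 0.0095) and Grhl2, an epithelial transcription factor, at least 1.45-fold (adjusted p = 0.0025). Genes that were dim on both 6 h arrays passed the filter through the 12 h arrays alone and so had to differ; their p-values are given as a description here and with the largest rises. Plin2, the lipid droplet coat protein, and Hmox1, heme oxygenase, rose by 0.48 and 0.36 and then by 1.94 and 1.44. The test of the difference of steps gave adjusted p of 0.0057 and 0.011. These are a description, since the steps share the 12 h arrays and the later one spans more hours. Under spike-in scaling both 12 h calls were lost. The call of Hmox1 was also lost without any 1 of the 4 arrays, and that of Plin2 without 12 h replicate 2 or either 6 h array. Cd36, a fatty acid transporter, read -1.63 and -1.45 at 6 h and -0.46 and -0.00 at 12 h (1.31 ± 0.17, adjusted p = 0.0084), and its next difference of 0.20 was not called (adjusted p = 0.39).

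**Figure D2:**
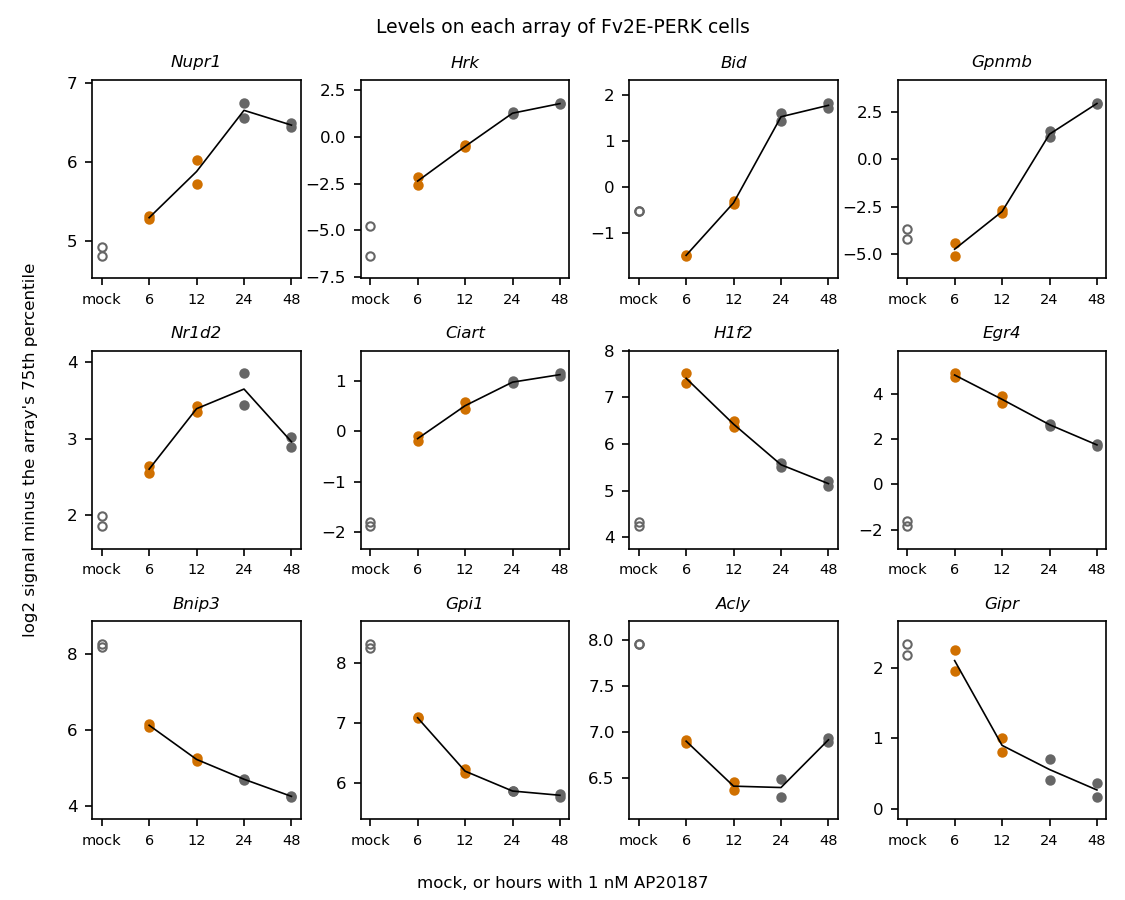
Level on each array (log2 signal minus the array's 75th percentile, vertical axes with their own ranges) of 12 genes in mock cells (open points) and after 6, 12, 24 and 48 h of 1 nM AP20187 (filled points, 6 h and 12 h in orange; the line joins the means of 2 arrays). Hrk, Bid and Gpnmb are higher at 12 h than at 6 h, where Bid and Gpnmb lie under the mock arrays. From 6 h on, the means of H1f2, Egr4, Bnip3 and Gpi1 are lower at each later time.

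Some components of the translation machinery rose. Of 18 initiation factors 4 were called higher and 1 lower (27.8%), with a median of 0.18. Eif2s2, the beta subunit of eIF2, read 6.42 and 6.32 at 6 h and 6.89 and 7.19 at 12 h (0.67 ± 0.11, adjusted p = 0.014). Eif2s1, the alpha subunit that PERK phosphorylates, rose by 0.40 ± 0.11 (adjusted p = 0.047). That rise is uncertain, since its 2 probes read 0.40 and 0.08 and 0 of them were called when each probe was tested. The call of Eif2s1 was also lost under spike-in scaling. Eif3c and Eif1a rose by 0.43 and 0.41, and Eif2b2, a subunit of the exchange factor that phosphorylated eIF2alpha inhibits, fell by 0.33. Of 22 ribosome biogenesis genes 3 were called higher and 0 lower, or 13.6% against 16.8% of all entries. They were the nucleolar proteins Npm1 (0.56 ± 0.10), Nop58 (0.52 ± 0.09) and Wdr12 (0.39 ± 0.09). Among 23 cytosolic ribosomal protein genes Rpl5 alone was called (0.35 ± 0.09, adjusted p = 0.045), a share of the list below that of all entries. Of the ribosome biogenesis genes 0 were called under spike-in scaling, without 12 h replicate 2 or without either 6 h array. Without 12 h replicate 2, or without either 6 h array, 0 of the 18 initiation factors were called, and without 12 h replicate 2 their median was 0.12.

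Of 20 immediate early genes, which respond to signalling without new protein synthesis, 5 were called lower and 3 higher, with a median of -0.21. Egr1 read 5.77 and 5.86 at 6 h and 5.39 and 5.13 at 12 h, against 1.81 and 1.65 in mock cells, and fell by 0.55 (SE 0.13, adjusted p = 0.036). Fos, Nr4a1 and Nr4a2 fell by 0.56, 0.59 and 0.64. The fifth, Fosl2, is uncertain, since its probes read -0.53, which was called, and 0.41, which was not. Fosl1, Maff and Klf6 went the other way, with rises of 0.60, 0.43 and 0.30. Egr4, outside the list, read 4.77 and 4.91 at 6 h, while the 12 h arrays gave 3.91 and 3.61 and the mock arrays -1.60 and -1.85. It fell by 1.08 (SE 0.12, adjusted p = 0.0064). Dusp6, a phosphatase that dampens ERK, fell by 0.54, while Spred1, an inhibitor of the same pathway, rose by 0.68. Without 12 h replicate 2, or without either 6 h array, 0 of the 20 immediate early genes were called.

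Of 12 replication-dependent histone genes 3 were called lower and 1 higher, with a median of -0.31. H1f2, a linker histone, read 7.30 and 7.51 at 6 h and 6.37 and 6.48 at 12 h, against 4.32 and 4.24 in mock cells, and fell by 0.98 (SE 0.10, adjusted p = 0.0058). H3c1 and H2aw fell by 0.92 and 0.82, and H4c8 rose by 0.45. H1f3, a linker histone named for its size of fall, went from 0.65 and 1.17 at 6 h to -1.20 and -0.92 at 12 h, a fall of 1.97 (SE 0.19, adjusted p = 0.0048), and fell by 1.97 again to 24 h. Many histone genes are near-identical copies, so their values are uncertain as to which copy was read. Without any 1 of the 4 arrays 2 histone genes were called lower.

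Some genes of the hypoxia response and of glycolysis fell. Bnip3, a mitophagy receptor induced by HIF-1, read 6.17 and 6.08 at 6 h and 5.20 and 5.26 at 12 h, against 8.19 and 8.27 in mock cells, and fell by 0.90 (SE 0.08, adjusted p = 0.0037). P4ha1 and P4ha2, prolyl hydroxylases of collagen, fell by 0.89 and 0.67, and Pdk1, the kinase that holds pyruvate out of the citric acid cycle, by 0.63. These were the 4 called of 13 hypoxia targets, 0 were higher, and the list's median was -0.09. Of 17 glycolysis genes 7 were called lower and 1 higher, with a median of -0.35. Gpi1, glucose-6-phosphate isomerase, read 7.10 and 7.08 at 6 h and 6.23 and 6.16 at 12 h, a fall of 0.89 (SE 0.07, adjusted p = 0.0034). Ldha, lactate dehydrogenase, fell by 0.68, Pfkp by 0.49, Aldoa by 0.47, Eno1 by 0.41 and Pfkm by 0.35, and the lactate carrier Slc16a1 by 0.49. Pfkfb3, which makes an activator of phosphofructokinase, rose by 0.35. Among genes named after their values were seen, Fam162a and Mgarp, both mitochondrial proteins, fell by 0.86 and 0.83. Leaving out 12 h replicate 2 or 6 h replicate 1 left 2 of the 4 hypoxia calls. For glycolysis 1 of the 7 lower calls was left without 12 h replicate 2 or either 6 h array and 4 without 12 h replicate 1, and spike-in scaling left 0 of each list.

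Of 16 fatty acid synthesis genes 9 were called lower, the largest share among the lists, and 0 higher, with a median of -0.37. Acly, which makes cytosolic acetyl-CoA, read 6.92 and 6.89 at 6 h and 6.37 and 6.46 at 12 h (fell by 0.49, SE 0.09, adjusted p = 0.019). Mlxipl, the glucose-responsive factor ChREBP, fell by 0.58, Scd2 and Fads1, which put double bonds into fatty acids, by 0.57 and 0.56, and Srebf1, the master regulator of the programme, by 0.48. Fads2, Elovl1, Thrsp and Acaca were the other called members, of which Acaca has a second probe that read 0.31 against -0.32 and was not called, and Fasn was not called (-0.08 ± 0.14, adjusted p = 0.70). Of 23 sterol genes 9 were called lower and 0 higher, with a median of -0.31. Ebp, a sterol isomerase, read 5.37 and 5.46 at 6 h and 4.87 and 4.91 at 12 h, a fall of 0.52 (SE 0.08, adjusted p = 0.013). Hsd17b7, a sterol reductase, and Pmvk, a mevalonate pathway kinase, fell by 0.62 and 0.55. Sqle, squalene epoxidase, was not called (-0.30 ± 0.09, adjusted p = 0.053). Without 12 h replicate 2, without 6 h replicate 1 or under spike-in scaling, 0 members of either list were called, and 1 of each was left without 6 h replicate 2 and 3 without 12 h replicate 1. The medians were -0.32 and -0.30 without 12 h replicate 2 and -0.30 and -0.25 under spike-in scaling.

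**Figure D3:**
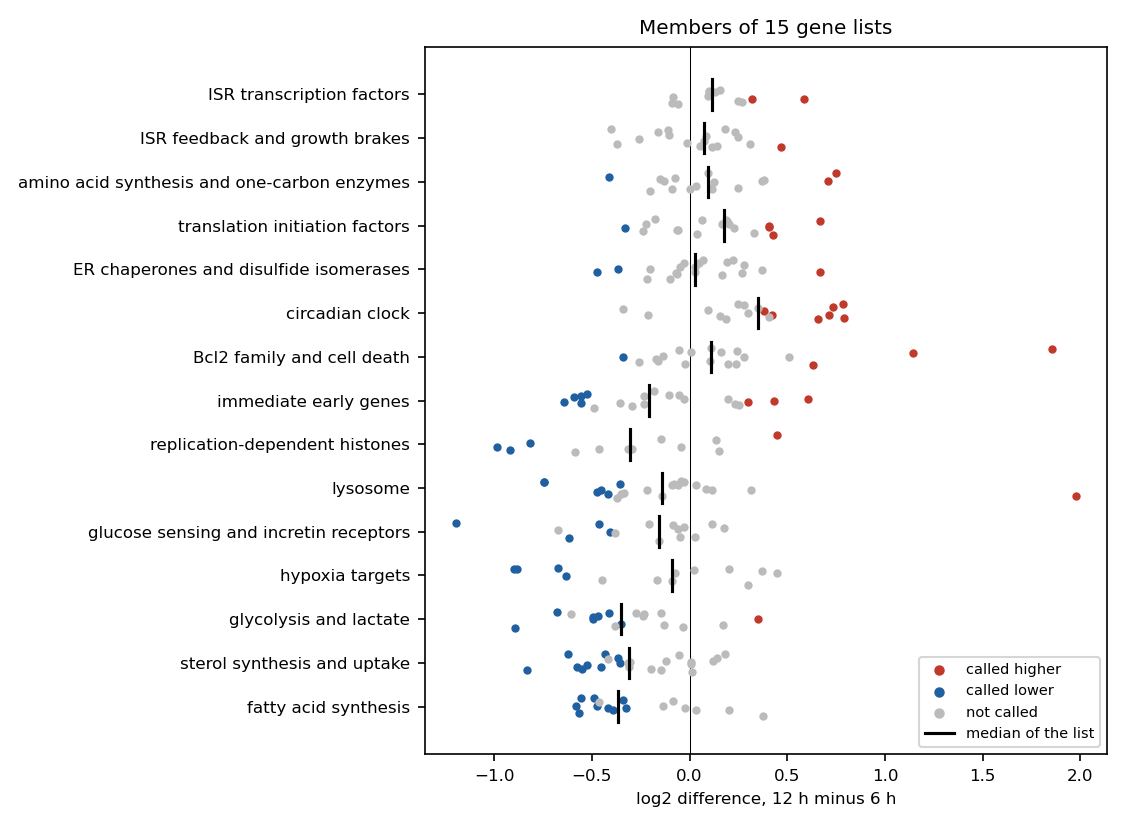
Log2 difference between 12 h and 6 h (horizontal axis) for each tested member of 15 gene lists (rows; vertical position within a row is random). Red points were called higher, blue lower and grey not called, and the black bar is the median of the list; the bars of fatty acid synthesis, glycolysis and sterol synthesis lie at -0.37, -0.35 and -0.31 and that of the circadian clock at 0.35.

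Of 20 chaperones and disulfide isomerases of the endoplasmic reticulum 1 was called higher and 2 lower, or 15% against 16.8% of all entries, with a median of 0.03. Dnajb9, a co-chaperone of BiP, read 2.90 and 2.81 at 6 h and 3.52 on both 12 h arrays, a rise of 0.67 ± 0.09 (adjusted p = 0.0095), and mock cells read 4.09 and 4.17. P4hb, a disulfide isomerase, fell by 0.47 (SE 0.08, adjusted p = 0.015) and rose by 0.52 to 24 h, and Sil1, a nucleotide exchange factor of BiP, fell by 0.37. Hspa5, which encodes BiP, read 6.94 and 6.81 at 6 h and 7.02 and 7.17 at 12 h and was not called (0.22 ± 0.09, adjusted p = 0.13). In the next step, which shares the 12 h arrays, 15 of these 20 genes were called higher and 0 lower. Over all 21662 entries, 3316 were called higher and 3086 lower in that step. Of 20 genes of ER-associated degradation and translocation Os9, a lectin that selects misfolded glycoproteins, alone was called (5%), and it fell by 0.43 (SE 0.09, adjusted p = 0.023). Under spike-in scaling, without 12 h replicate 2 or without 6 h replicate 2, 0 members of either list were called.

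Of 21 lysosomal genes 6 were called lower and 1, Gpnmb, higher, with a median of -0.14. Psap, the precursor of the saposins, read 4.39 and 4.40 at 6 h and 3.73 and 3.57 at 12 h, against 5.64 and 5.60 in mock cells, and fell by 0.75 (SE 0.08, adjusted p = 0.0067). It rose by 0.55 to 24 h, and the test of the difference between the steps gave an adjusted p of 0.0063. Psap was named for the small p of its fall, which that test uses again, and the steps share the 12 h arrays. That p is therefore given as a description. Npc2, a cholesterol carrier, fell by 0.74 (SE 0.08, adjusted p = 0.0055), and the hydrolase genes Hexa and Ctsb fell by 0.47 and 0.42. In the 12 h to 24 h step, which shares the 12 h arrays, 16 of the 21 were called higher and 0 lower. Over all 21662 entries, 3316 were called higher and 3086 lower in that step. Of 17 autophagy genes 3 were called higher, among them the cargo receptors Tax1bp1 (0.48 ± 0.08) and Sqstm1 (0.36 ± 0.07), and 2 lower. Of the higher autophagy calls 1 was left without 12 h replicate 1 and 0 without any other 1 of the 4 arrays. Without 12 h replicate 1, 3 of the lysosomal genes were called lower, and 2 without any other 1 of the 4 arrays.

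Some genes of beta cell function fell, while the insulin genes did not pass the test. Ins1 read 9.31 and 9.34 at 6 h and 9.38 and 9.53 at 12 h (0.13 ± 0.10, adjusted p = 0.42), and Ins2 read 8.68 and 8.97 at 6 h and 8.73 and 8.88 at 12 h, which overlap (-0.02 ± 0.13, adjusted p = 0.94). In bulk RNA, fewer cells of a type and less RNA per cell cannot be told apart. Of 17 genes of insulin and granule cargo Pcsk1n, which encodes proSAAS, alone was called (5.88%), and it fell by 0.59 (SE 0.12, adjusted p = 0.024). Of 15 genes of glucose sensing and incretin receptors 4 were called lower and 0 higher (26.7%), with a median of -0.16. Gipr, the receptor of the gut hormone GIP, read 2.24 and 1.95 at 6 h and 1.00 and 0.80 at 12 h, and the mock arrays read 2.18 and 2.33. It fell by 1.20 (SE 0.15, adjusted p = 0.0081), while Glp1r, the GLP-1 receptor, fell by 0.46, the channel Trpm5 by 0.62 and Abcc8, the sulfonylurea receptor, by 0.41. The largest difference among 18 beta cell transcription factors was a rise of 1.27, which was not called. Of the 18, 3 were called lower and 0 higher, or 16.7% against 16.8% of all entries. Pax6 fell by 0.50, Pdx1 by 0.33 and Pax4 by 0.85. Of these, 1 was left without 12 h replicate 1 and 0 under spike-in scaling or without any other 1 of the 4 arrays. Of 16 exocytosis genes 3 were called higher and 1 lower (25%), with a median of -0.09. Snap25, which drives vesicle fusion, and Rims2, which docks vesicles, rose by 0.65 and 0.40, and Rph3al, a Rab effector, fell by 0.65. Cplx2 is uncertain, with probes from -0.18 to 0.47, and 0 of the higher calls of the list were left without any 1 array. Txnip, which inhibits thioredoxin, read 2.46 and 2.36 at 6 h and 2.65 and 2.52 at 12 h and was not called (0.18 ± 0.14, adjusted p = 0.40). Of the glucose sensing genes, 0 were called lower without 12 h replicate 2, 1 without 6 h replicate 1 and 2 without 6 h replicate 2.

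Among the lists, the circadian clock had the most higher calls. Of 17 tested, 7 were called higher (41.2%) and 0 lower, with a median of 0.35. Clock, the transcription factor that drives the loop with Arntl, read 1.62 and 1.72 at 6 h and 2.28 and 2.48 at 12 h, a rise of 0.71 ± 0.12 (adjusted p = 0.015). Nr1d2, a nuclear receptor that represses the loop, read 2.56 and 2.64 at 6 h and 3.35 and 3.43 at 12 h (0.79 ± 0.14, adjusted p = 0.016). Ciart, a repressor of Clock and Arntl, rose by 0.66 ± 0.09 (adjusted p = 0.0087), Bhlhe41 by 0.78, Hlf by 0.74, Rora by 0.42 and Dbp by 0.38. Arntl itself was not called (-0.21 ± 0.08, adjusted p = 0.11), nor were Per1 (0.28 ± 0.10, adjusted p = 0.11) and Cry1 (0.16 ± 0.14, adjusted p = 0.45). Hours in culture and hours of AP20187 cannot be told apart in this comparison. Calls left were 1 without 12 h replicate 2 or either 6 h array, 2 without 12 h replicate 1 and 0 under spike-in scaling, where the median was 0.41.

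The promoter of Ciart, on the minus strand at chr3:95882179-95882478 of GRCm38.p6, is shown because it holds 3 copies of the E-box CACGTG, the word bound by Clock with Arntl, in capitals. It was printed after its matches were seen.
Ciart: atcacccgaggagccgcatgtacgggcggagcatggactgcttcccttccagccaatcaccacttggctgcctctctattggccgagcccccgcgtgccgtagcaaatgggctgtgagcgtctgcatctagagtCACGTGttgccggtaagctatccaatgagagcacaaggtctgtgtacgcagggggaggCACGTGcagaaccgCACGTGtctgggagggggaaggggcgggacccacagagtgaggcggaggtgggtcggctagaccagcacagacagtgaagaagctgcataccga
The same word, which reads alike on both strands, was in 5 of 15 clock genes with a promoter in the table, in 11.4% of tested genes, in 13.7% of those called higher and in 10.8% of those called lower.

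By the rule for named genes, the 15 largest rises were BC061237, Krt75, Chrm1, Flt1, Bmp4, Gm10375, Nwd2, Ly86, Mfap4, Susd4, Olfr871, Ankk1, 4921504E06Rik, Krt90 and Acot3. All but Mfap4, Gm10375 and Acot3 were not well above background on either 6 h array. Krt75, a hair follicle keratin, read -7.07 and -6.62 at 6 h, while the 12 h arrays gave -4.02 and -3.56 and the 24 h arrays -7.17 and -5.27. It was at least 1.92-fold higher at 12 h than at 6 h (adjusted p = 0.017), a call lost without any 1 of the 4 arrays. Flt1, a VEGF receptor, was at least 4.46-fold higher (adjusted p = 0.0095, a call lost without 6 h replicate 1 or 12 h replicate 2) and the predicted gene 4921504E06Rik at least 3.52-fold (adjusted p = 0.00027). Mfap4, a matrix glycoprotein, read -4.51 and -4.07 at 6 h, while the 12 h arrays gave -1.42 and -1.67 and the 24 h arrays -4.79 and -5.70. It rose by 2.74 ± 0.29 (adjusted p = 0.0059) and then fell by 3.69 (adjusted p = 0.00081). Both steps use the 12 h arrays by which it was picked. Of the 413 rises of at least 2-fold, 196 were not well above background on either 6 h array.

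Some genes well above background on all 4 arrays also rose at 12 h and fell at 24 h. They were named after their values were seen, for being called higher at 12 h and called lower in the next step. Both steps use the 12 h arrays, so the p-values of both are given as a description. Smo, the Hedgehog signal transducer, read -0.47 and -0.17 at 6 h and rose to 1.42 and 1.24 at 12 h, with 24 h arrays at -0.20 and 0.13 and 48 h arrays at 1.11 and 1.56. Its rise was 1.65 ± 0.19 (adjusted p = 0.0070), and it fell by 1.36 in the next step (adjusted p = 0.0040). Cat, which encodes catalase, Pign, a GPI anchor enzyme, and Slc8a3, a sodium-calcium exchanger, rose by 1.43, 1.49 and 1.35 and fell by 1.13, 1.14 and 1.07 to 24 h; these 3 calls at 12 h were lost without 6 h replicate 1 or 12 h replicate 2. The probes of Smo, Cat, Pign and Slc8a3 were high and low on the same arrays, and whether each reads its named gene alone was not tested. H2-Q4, a class I histocompatibility gene, read 5.14 and 5.52 at 6 h, while the 12 h arrays gave 6.79 and 6.51 and the 24 h arrays 4.91 and 4.79 (1.32 ± 0.17, adjusted p = 0.0082). H2-Q4 has close relatives in the genome, so its value is uncertain as to which copy was read.

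**Figure D4:**
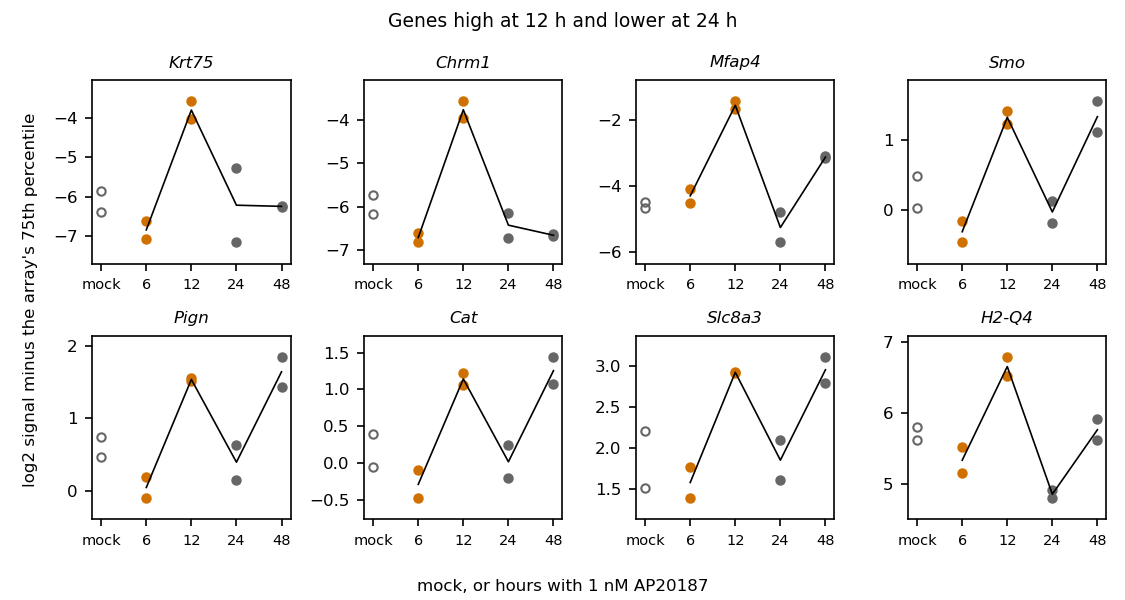
Level on each array (log2 signal minus the array's 75th percentile, vertical axes with their own ranges) of 8 genes in mock cells (open points) and after 6, 12, 24 and 48 h of AP20187 (filled points, 6 h and 12 h in orange; the line joins the means of 2 arrays). All 8 are higher at 12 h than at 6 h and at 24 h on every array, and Smo, Pign, Cat and Slc8a3 are high again at 48 h.

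The largest called fall was that of Gjd3, a gap junction connexin. It read -0.36 and 0.43 at 6 h, while the 12 h arrays gave -3.72 and -3.74 and the mock arrays -3.03 and -3.84, and it fell by 3.76 (SE 0.36, adjusted p = 0.0048), or 13.6-fold. H1f3, described with the histones, was the second largest. Other named falls were Prss12, Atp4a, Ndrg2, Tm4sf5, Gipr, Cyp2d22, Hkdc1, Selenbp1, Emid1, AA387883, Srpk3 and Lratd1, between -1.44 and -1.08. The call of Prss12 was lost without any 1 of the 4 arrays. Those of Atp4a, Cyp2d22, Selenbp1, Srpk3, Tm4sf5, Gipr and Lratd1 were lost without 12 h replicate 2. Atp4a, Selenbp1 and AA387883 lost theirs without either 6 h array, and Ndrg2, Cyp2d22 and Selenbp1 with normexp values. Hkdc1 and Emid1 kept theirs in each of these. Lratd1 read 0.48 and 0.49 at 6 h and -0.52 and -0.67 at 12 h, fell by 1.08 (SE 0.12, adjusted p = 0.0069) and fell by 1.38 again. Hkdc1, a hexokinase family member, fell by 1.18 (SE 0.14, adjusted p = 0.0072). Ndrg2 was not well above background on either 12 h array, and its 6 h level was at least 1.91-fold higher; the same bound for Selenbp1 was 1.47-fold.

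The 6 h to 12 h interval had fewer calls than the later ones, which share arrays with it or with each other and span more hours. At 48 h against 24 h 11140 entries were called (51.4%), across 2 slides, where slide and time cannot be told apart. The median size of difference was 0.20, 0.24 and 0.36 in the 3 steps.

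Beta cell markers were present on the 4 arrays. Of 12, 11 were well above background on all 4, Slc2a2 being so on 1, and their summed level relative to the 75th percentile was 1760 and 1890 at 6 h and 1770 and 1930 at 12 h. Of 6 immune markers 2 were well above background on all 4 arrays, Cd3e and Itgam, and on 0 arrays were Adgre1, Cd79a and Lyz2. Their sum was 12.3 and 14.5 at 6 h against 22.6 and 23.0 at 12 h, and the brightest Itgam probe was called higher (0.84 ± 0.16, adjusted p = 0.020), a call lost without any 1 of the 4 arrays; its 3 probes ranged from -0.34 to 0.84. Of 11 exocrine and duct markers 3, among them Ctrb1 and Spp1, were well above background on all 4 arrays and Cpa1, Cela1, Pnlip and Krt19 on 0, with sums of 11 and 13.4 at 6 h and 15.8 and 18.4 at 12 h. Other islet hormone cells' markers summed to 163 and 171, then 129 and 136, with Irx2 and Hhex on 0 arrays. Mesenchymal sums of 8 markers were 0.545 and 0.598 at 6 h and 0.444 and 0.455 at 12 h, with Col1a1 and Pdgfra on 0 arrays, while Dcn, dim on both 6 h arrays, was at least 1.60-fold higher at 12 h (adjusted p = 0.025), and endothelial sums were 6.51 to 7.02, with Cdh5 on 0. Heart markers summed to 2.16 and 2.54, then 2.11 and 1.86, with Tnnt2 on 0 arrays. Nppa, dim on both 6 h arrays, was at least 1.53-fold higher (adjusted p = 0.0077). Dcn and Nppa passed the filter through the 12 h arrays alone and so had to differ. Their p-values are given as a description. Skeletal muscle sums were 0.952 and 0.976, then 0.902 and 0.858, with Ckm on 0 arrays. The part of these sums in the other results was not tested. All 4 arrays lay on 1 slide, the signal at the 75th percentile was 625 to 662.5 at 6 h and 513.1 to 551.2 at 12 h, and 50.9 to 53.3% of probes were well above background. The number of arrays, 2 per time, limits the precision.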

How the data were processed

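Expression was measured on 1-colour Agilent arrays, and the 12 arrays of the PERK experiment were read. Spot intensity was taken from the scans with Agilent Feature Extraction 10.7.1.1, per the submitters' processing notes, and the deposited intensity is background-subtracted, per the file headers, and not scaled between arrays. For the deposited log2 values of the series matrix the sources used here name no method. Compared with the scanner files, they equal log2 processed signal minus the array's 75th percentile and minus 1 baseline per probe, which stays unknown. Their column medians are -0.25 and -0.12 at 6 h and -0.28 and -0.20 at 12 h.

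Control spots (3671 of 59305) and outlier spots (108 to 148 on the 4 arrays) were left out; 0 spots were saturated. Each probe's spots were averaged, and the array's 75th percentile was subtracted on the log2 scale. Accessions matched to a RefSeq table of GRCm38.p6 named 26582 of 55681 probes; 29099 stayed unnamed, 16194 of them known by coordinates. For 5370 symbols with several probes the brightest stood for the gene, which left 37208 entries. Probes of the same gene were called in opposite directions for 2610318N02Rik, Adra1b, Ap5z1, Banp, Bglap3, Fastkd1, Fn3k, Hexim2, P2rx3, Rgs20, St6galnac4, Ulk3 and Wfikkn2, none of which is described here. Entries well above background on both 6 h or both 12 h arrays were tested with limma 3.58.1 (R 4.3.3; lmFit, eBayes) on the 8 AP20187 arrays, which share 1 estimate of the spread, with Benjamini-Hochberg adjustment over all 21662. On simulated data for 12 h against 6 h with 21670 entries, 18.2%, 73.1% and 92.5% of changes of 0.5, 1 and 2 log2 were recovered. The normexp alternative (offset 50) used the median spot intensity.

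The members and lists were chosen with earlier results of these data known; no list was tested. Named genes are the 15 largest rises and falls among called, symbol-bearing entries whose groups do not overlap, up to 4 members of smallest p per list, and Eif2ak3, Atf4, Ddit3, Atf3, Trib3, Asns, Chac1, Ppp1r15a, Hspa5, Ins1, Ins2 and Txnip. Other called list members and the genes said to be so were named after their values were seen. Replicate numbers did not pair the samples: the correlation of deviations between same-numbered 6 h and 12 h arrays was -0.00. Some genes that the rule picks are not reported here.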

Additional observations from a re-analysis of the deposited data

How the results depend on the processing

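Against 3636 calls at 12 h against 6 h, spike-in scaling gave 789, no filter on dim probes 377 and the 6 arrays of the first slide (6, 12 and 24 h) 2055. Quantile, normexp and series matrix values gave 4020, 4371 and 3624, of which 3456, 3206 and 3619 were also called here in the same direction. Leaving out 1 of the 8 arrays gave 315 to 4739. At 24 h against 12 h, spike-in scaling gave 1776 calls against 6402, no filter 3182, and leaving out 1 array 3098 to 6352. At 48 h against 24 h, spike-in scaling gave 6390 against 11140, and leaving out 1 array 7283 to 10776. The cause of these differences was not tested, except that no filter raises the entries tested to 37195. With a replicate block the count at 12 h against 6 h was 3152, of which 2909 were shared with the fit without it. A slide block could not be fitted, since the 48 h arrays alone lie on the second slide. Irf1 changed sign, to 0.093 (adjusted p = 0.78), with the mean of its probes. Of the calls, 183 rises and 51 falls held without each of the 4 arrays, and 160 and 14 also under spike-in, quantile, normexp and series matrix values, a criterion chosen after seeing the data. A filter asking for signal well above background on all 4 arrays, also chosen after seeing the data, gave 3619 calls.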

Other observations

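Of 25 genes of DNA replication 4 were called higher and 0 lower, or 16% against 16.8% of all entries, with a median of 0.15. The called genes were Pola1, a subunit of the priming polymerase (0.66 ± 0.11, adjusted p = 0.014), Gins2, Mcm6 and Mcm10. Of 24 mitosis genes 4 were called lower and 1 higher (20.8%), with a median of -0.08. Birc5, which encodes survivin, read 5.25 and 5.21 at 6 h and 4.68 and 4.73 at 12 h, a fall of 0.52 (SE 0.08, adjusted p = 0.011), and the kinase gene Aurka fell by 0.52 and Plk1 by 0.35, while the checkpoint kinase gene Bub1 rose by 0.39. Under spike-in scaling, without 12 h replicate 2 or without 6 h replicate 1, 0 members of either list were called.

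Of 16 interferon-stimulated genes 2 were called higher and 3 lower (31.2% against 16.8% of all entries), and under spike-in scaling 0 were called. One of the 5, Irf1, changed sign with the mean of its probes, as given above. Ddx58, which encodes the RNA sensor RIG-I, read -1.22 and -1.23 at 6 h and -0.36 and -0.51 at 12 h (0.79 ± 0.08, adjusted p = 0.0059), and Ifit3 rose by 0.70, while Oas1a, Stat2 and Irf1 fell by 0.57, 0.48 and 0.33. Among genes of the NF-kB pathway, the subunit gene Rel rose by 1.21 ± 0.16 and the chemokine Cxcl10 by 0.63, and Nfkbie, an inhibitor of NF-kB, fell by 0.56 and the chemokine Cxcl12 by 0.98. Without 12 h replicate 2, 1 interferon-stimulated gene was called higher and 0 lower, and 0 NF-kB genes higher and 1 lower.

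The number of entries well above background on both arrays of 1 group and on no array of the other 5 groups was 75 for 12 h, 24 of them with a symbol, against 8 for 6 h, 14 for 24 h, 255 for 48 h, 2 for mock Fv2E-PERK cells and 69 for mock wild-type cells. Of the 413 rises of at least 2-fold at 12 h, 186 had a symbol, 83 were known by coordinates and 144 by other names.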
